A study of Mus musculus with 17 samples.

Results

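The 67 genes described here had higher RNA levels in oocytes of 48-week-old mice than in oocytes of 4-week-old mice, and were chosen by that difference. Counts were scaled to the total of gene counts in each library (CPM, scaled to 1000000), and a gene was taken when the lower of its 2 aged values plus 1 was at least 4 times the higher of its 2 young values plus 1. Of 24491 genes, 69 met this threshold (0.282%, or 0.404% of the 17079 genes with a count in any oocyte library). Potassium channel genes with symbols starting in Kcn, together with Slc14a1, Tktl2 and Chrdl1, were set aside beforehand, which removed Kcng2 and Slc14a1 and left 67. The same threshold in the opposite direction was met by 100 genes. Since the aged and young values made the choice, the difference between those groups is given below as a description, without a test.

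All mice were wild-type CD1. Oocytes at metaphase of the second meiotic division (MII) were collected after injection of the gonadotropins PMSG and, 46 to 48 h later, hCG, and cumulus cells were taken off with 0.1% hyaluronidase. Young oocytes came from mice of 4 weeks (n = 2 libraries) given 5 IU of each hormone. Aged oocytes came from mice of 48 weeks (n = 2) given 10 IU, so hormone dose and age cannot be told apart. Rapamycin oocytes came from 48-week mice (n = 3) given the same 10 IU and treated with rapamycin, an inhibitor of the mTOR kinase, at 2 mg/kg for 40 weeks from the age of 8 weeks. Each library held the poly(A) RNA of about 10 oocytes. A further 10 libraries came from the hippocampus of F1 offspring aged 40 to 44 weeks, born to young (n = 4), aged (n = 3) or rapamycin-treated aged (n = 3) mothers. In pools of this kind, more oocytes carrying a transcript and more transcript per oocyte cannot be told apart.

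The growing mammalian oocyte transcribes and stores the mRNA on which maturation and the earliest embryo depend, and then falls silent. In an MII oocyte almost no transcription takes place, and RNA levels are set by what was stored during growth and by how fast each transcript is degraded during maturation. Loss or gain of polyadenylated tail length is a further known control of maternal mRNA, and it affects how well a poly(A) library captures a transcript.

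Oocyte libraries held 3912163 to 8334873 gene counts and hippocampus libraries 16434398 to 20220617. Across genes, log2 CPM of the library rapamycin 1 correlated with the other oocyte libraries at 0.808 to 0.845, against 0.917 to 0.982 among the other 6. In rapamycin 1, Gdf9, an oocyte growth factor gene, stood at 256 CPM against 5218 to 8756 in the other libraries, and Inha, a granulosa cell gene, at 65.4 CPM against at most 4.08. Counts taken over all 3 rapamycin libraries are therefore also given without it, and others are given library by library. Of 30 MII oocyte markers, 29 had counts in every oocyte library, with a summed level of 82095 to 97816 CPM. In rapamycin 1 that sum was 94172 CPM, but it hides low single markers besides Gdf9. There H1foo stood at 436 CPM (10136 to 13951 in the other oocyte libraries) and Mos at 10.9 CPM (1136 to 1913). Zp3 stood at 14.4 CPM (165 to 289) and Bmp15 at 697 CPM (2765 to 4426). The remaining markers of the list are not given singly here. Summed cumulus and granulosa markers came to 403 and 421 CPM in young and 289 and 303 CPM in aged oocytes, with Amh and Foxl2 at 0 in both groups. In rapamycin libraries 1 to 3 the sum was 346, 320 and 296 CPM, below the young libraries. Counts were present for 20 of the 22 markers in rapamycin 1 and for 15 and 17 in rapamycin 2 and 3. Each young library had counts for 16 and each aged library for 10. Like Inha, Gja1 (26.7 CPM, elsewhere at most 2.44) and Foxl2 (1.37 CPM, elsewhere 0) were highest in rapamycin 1, where Amh and Fshr were at 0. The sum alone therefore does not describe that library. Endothelial and stromal markers came to 152 and 165 CPM in young against 236 and 198 CPM in aged oocytes. Pecam1 alone gave 98.4 and 105 CPM of this in young and 126 and 109 CPM in aged oocytes. Immune and blood markers came to 199 and 175 CPM in young against 116 and 217 CPM in aged oocytes, where haemoglobin genes were at 0 and Ptprc did not exceed 0.227 CPM. Of these 27 markers, 7 and 10 had counts in young and 5 and 6 in aged oocytes, so the sums rest on few genes. Neuronal markers came to 504 and 656 CPM in young against 611 and 405 CPM in aged oocytes, with counts for 6 or 7 of 16 markers. None of the 67 genes is on any of these marker lists, and the part of other cells in their levels was not tested.

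A few of the most abundant members are shown with the reference sequence of their promoter, from 250 bases before to 50 bases after the transcription start in RefSeq on GRCm38.p6, because they are the protein-coding members with the highest levels in aged oocytes. Capitals mark GC boxes (GGGCGG) and CCAAT boxes (CCAAT) on either strand.
Pnpla3, chr15:84167566-84167865, plus strand: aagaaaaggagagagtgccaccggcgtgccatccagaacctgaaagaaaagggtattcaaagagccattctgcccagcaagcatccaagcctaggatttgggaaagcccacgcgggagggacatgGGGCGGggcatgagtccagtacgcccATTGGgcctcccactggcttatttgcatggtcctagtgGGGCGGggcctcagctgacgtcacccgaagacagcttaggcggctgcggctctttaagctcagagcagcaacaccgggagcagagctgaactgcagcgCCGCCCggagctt
Kctd5, chr17:24073436-24073735, minus strand: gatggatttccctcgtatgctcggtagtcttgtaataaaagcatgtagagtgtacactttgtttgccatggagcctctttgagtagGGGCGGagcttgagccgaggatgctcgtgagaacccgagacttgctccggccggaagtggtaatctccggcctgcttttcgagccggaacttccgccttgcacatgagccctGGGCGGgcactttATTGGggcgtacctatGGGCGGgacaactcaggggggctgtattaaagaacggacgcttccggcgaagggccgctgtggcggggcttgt
Mtfr2, chr10:20347569-20347868, plus strand: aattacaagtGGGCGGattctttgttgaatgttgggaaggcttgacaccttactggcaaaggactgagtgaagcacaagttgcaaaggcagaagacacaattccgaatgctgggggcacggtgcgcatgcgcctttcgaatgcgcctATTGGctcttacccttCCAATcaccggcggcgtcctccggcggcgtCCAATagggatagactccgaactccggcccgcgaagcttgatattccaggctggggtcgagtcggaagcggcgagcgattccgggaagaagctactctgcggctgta
The Pnpla3 and Kctd5 windows each hold 3 GC boxes and 1 CCAAT box, and the Mtfr2 window 1 GC box and 3 CCAAT boxes. None of the 3 holds the TATA box letters TATAAA. Of 27025 mouse promoters of this length, 35.9% hold GGGCGG, 37.9% CCAAT and 14.2% TATAAA. Over the 12886 promoters of genes with a count in oocytes the shares are 56.8%, 38.5% and 9.13%. Promoters were found for 46 of the 67 genes (68.7%), too few for a share over the whole set.

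The ratio of the choice (lower aged over higher young, each plus 1 CPM) had a median of 7.17, with 23 genes at 10 or more and 27 under 6. Most members were rare even in aged oocytes: the lower aged value had a median of 18.4 CPM, was under 20 CPM in 35 genes and reached 100 CPM in 9. In young oocytes 10 genes had no count at all and 14 had 1 to 3 counts over both libraries, where 3 counts equal 0.360 to 0.665 CPM. Just inside the threshold lay Dhrs3 (ratio 4.06) and Fam234b (4.02), and just outside it Caskin2 (3.99), Lrrn4 (3.98), Taf5l (3.96), Zswim4 (3.92) and Vrk2 (3.90). The 2 aged libraries differed by over 2-fold in 8 members.

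**Figure D1:**
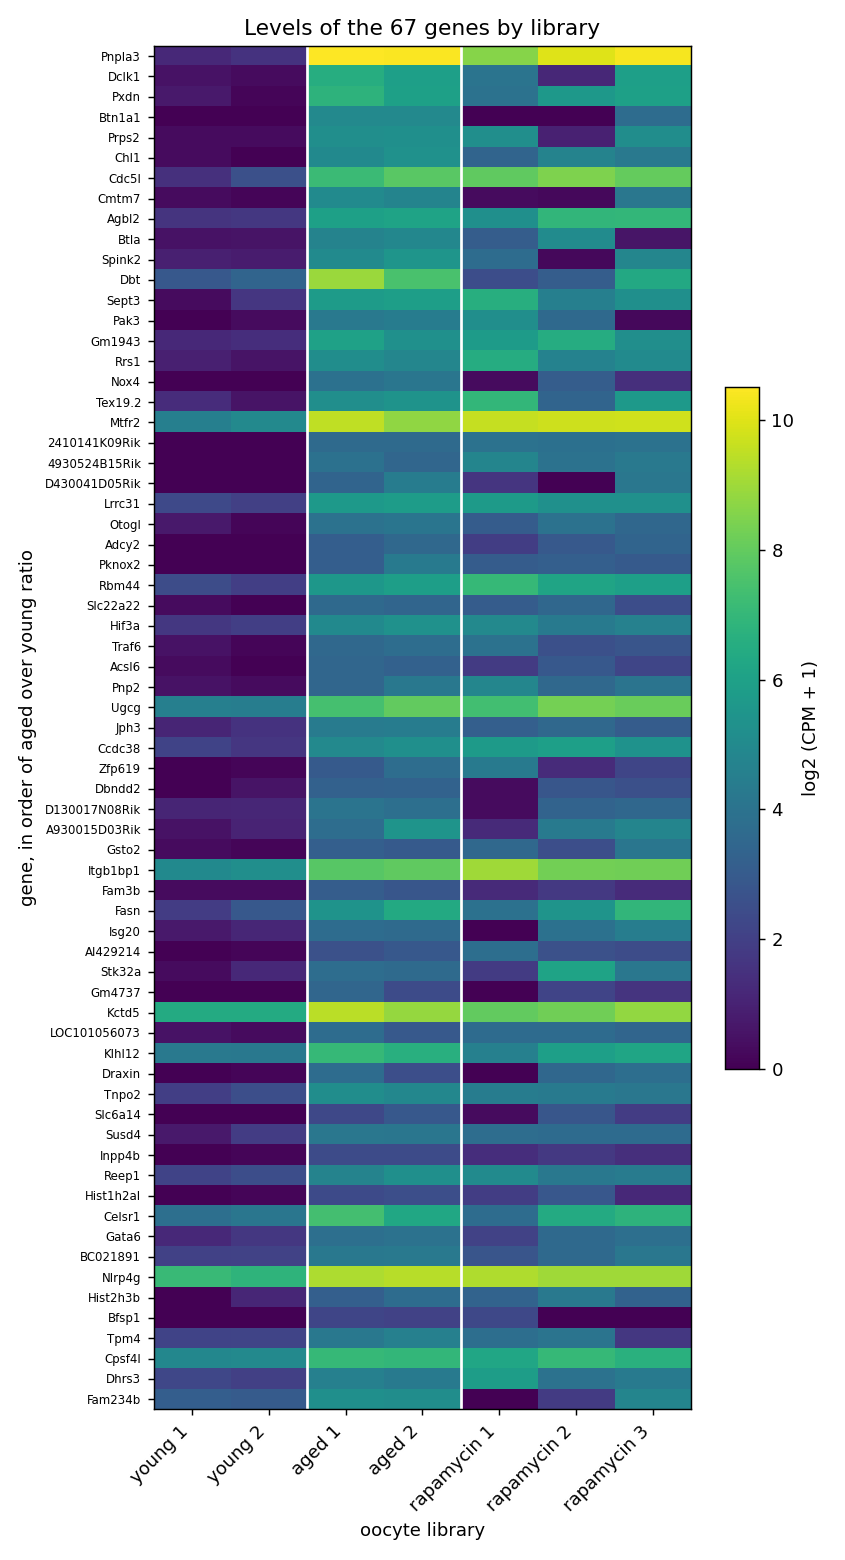
Level of each of the 67 genes (rows, in order of the aged over young ratio) in each of the 7 oocyte libraries (columns), as log2 (CPM + 1) on a colour scale from 0 to the highest value. White lines part young, aged and rapamycin libraries; the rapamycin columns are mostly close in colour to the aged ones, with dark cells that differ from library to library.

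The members are taken below by known role, in groups formed with their values in view, which do not show that any role is overrepresented. Genes of lipid handling included the most abundant member. Pnpla3 (ENSMUSG00000041653; GRCm38 chromosome 15, 84167837 to 84187236, plus strand, protein coding) encodes a lipase of lipid droplets. It stood at 1.33 and 1.92 CPM in young oocytes, 1466 and 1396 CPM in aged oocytes and 394, 1020 and 1332 CPM in rapamycin libraries 1 to 3. It was near absent from young oocytes and abundant in all 5 libraries of 48-week mice, with every rapamycin library below both aged ones. Its aged over young ratio of 478 was the highest of all 67, followed by 42.5 for Dclk1. Fasn, the fatty acid synthase, had 2.66 and 6.36 CPM in young, 41.1 and 83.8 CPM in aged and 14.1, 42.2 and 119 CPM in rapamycin oocytes. Its rapamycin values spread on both sides of the aged ones. Acsl6, an acyl-CoA synthetase, was rarer, at 0.222 and 0 CPM in young, 10.2 and 8.61 CPM in aged and 2.51, 6.46 and 3.62 CPM in rapamycin oocytes. These 3 genes (4.48% of members) were those on the list of lipid metabolism, which holds 1.30% of detected genes (222). Outside that list, Ugcg, which makes glucosylceramide, had 22.4 and 21.1 CPM in young, 170 and 253 CPM in aged and 161, 323 and 276 CPM in rapamycin oocytes. Rapamycin and aged values of Ugcg overlapped, and both lay above the young ones.

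Mitochondrial and metabolic genes follow. Mtfr2 (chromosome 10, 20347770 to 20361304, plus strand), named for the regulation of mitochondrial fission, had 22.4 and 30.0 CPM in young, 720 and 432 CPM in aged and 773, 845 and 859 CPM in rapamycin oocytes. All 3 rapamycin libraries lay above both aged ones. Dbt (chromosome 3, 116513070 to 116549981, plus strand), a subunit of the complex that breaks down branched-chain amino acids, had 6.43 and 9.60 CPM in young and 483 and 181 CPM in aged oocytes. In rapamycin oocytes Dbt stood at 4.56, 7.57 and 81.0 CPM, so that 2 of 3 libraries were within or below the young range. Prps2, on chromosome X, makes the sugar phosphate from which nucleotides are built, and had 0.222 and 0.240 CPM in young, 36.0 and 36.2 CPM in aged and 36.0, 0.946 and 34.7 CPM in rapamycin oocytes. Libraries 1 and 3 matched the aged level while library 2 was near the young one. Nox4, an oxidase that releases hydrogen peroxide, had no count in young oocytes, 14.1 and 16.3 CPM in aged and 0.228, 7.57 and 1.64 CPM in rapamycin oocytes. Gsto2, a glutathione transferase, had 8.18 and 6.80 CPM in aged, at most 0.222 CPM in young and 10.7, 4.73 and 16.3 CPM in rapamycin oocytes.

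Genes of RNA handling and of the germ line came next. Cdc5l (chromosome 17, 45391884 to 45433737, minus strand), a core splicing factor, had 1.77 and 4.92 CPM in young, 143 and 225 CPM in aged and 247, 358 and 263 CPM in rapamycin oocytes. Here too every rapamycin library exceeded both aged ones. Only 72.2% of the 75-base words of Cdc5l transcripts are unique in the annotation, the others being shared with gene models such as Gm9045, so its counts are uncertain. Rbm44, an RNA-binding protein of germ cells, had 4.43 and 2.88 CPM in young, 46.8 and 58.7 CPM in aged and 132, 69.4 and 60.8 CPM in rapamycin oocytes. Rrs1, a ribosome assembly factor, had 0.886 and 0.480 CPM in young, 35.0 and 27.6 CPM in aged and 91.6, 24.4 and 31.9 CPM in rapamycin oocytes. Both genes kept clear of the young range in every library of 48-week mice. Tex19.2, a paralogue of the germline gene Tex19.1, had 1.55 and 0.480 CPM in young, 35.5 and 41.0 CPM in aged and 125, 9.62 and 50.6 CPM in rapamycin oocytes. Spink2, a protease inhibitor known from sperm, had 0.886 and 0.720 CPM in young, 31.7 and 44.4 CPM in aged and 12.3, 0.158 and 27.4 CPM in rapamycin oocytes. Nlrp4g, annotated as a transcribed pseudogene of an oocyte-expressed family, was already abundant in young oocytes at 140 and 115 CPM, against 599 and 666 CPM in aged and 614, 511 and 517 CPM in rapamycin oocytes.

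Cytoskeletal, kinase and adhesion genes are next. The list of microtubule motors, tubulins and cilia held 1 member (1.49%, against 1.86% of detected genes), and that of cell adhesion 1 (1.49% against 0.931%). Dclk1 (chromosome 3, 55242364 to 55539068, plus strand), a microtubule-binding kinase, had 0.443 and 0.240 CPM in young, 92.0 and 60.3 CPM in aged and 15.7, 1.26 and 59.5 CPM in rapamycin oocytes. The rapamycin libraries ran from near the young level to near the aged level. Pak3, a kinase that acts downstream of small GTPases, had 0 and 0.240 CPM in young, 18.1 and 20.2 CPM in aged and 35.8, 11.04 and 0.164 CPM in rapamycin oocytes. Chl1, a neural adhesion molecule, had 0.222 and 0 CPM in young, 30.9 and 38.7 CPM in aged and 9.57, 25.2 and 18.1 CPM in rapamycin oocytes. All 3 rapamycin values of Chl1 lay between the young and the aged ones. Agbl2, a carboxypeptidase that trims tubulin tails, had 1.99 and 2.28 CPM in young, 62.4 and 66.8 CPM in aged and 36.2, 120 and 126 CPM in rapamycin oocytes. Sept3, a septin, had 0.222 and 2.16 CPM in young, 52.9 and 58.9 CPM in aged and 94.6, 22.1 and 36.3 CPM in rapamycin oocytes. Pxdn, a peroxidase that cross-links collagen IV of basement membranes, had 0.665 and 0.120 CPM in young, 111 and 61.4 CPM in aged and 14.8, 47.3 and 62.5 CPM in rapamycin oocytes. Itgb1bp1, which binds the tail of integrin beta 1, had 30.8 and 35.8 CPM in young, 217 and 246 CPM in aged and 511, 313 and 305 CPM in rapamycin oocytes. Every rapamycin value of Sept3 and Pxdn lay above the young ones, some within or above and some below the aged range, and Itgb1bp1 exceeded the aged range in every rapamycin library.

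Genes of signalling, transcription and protein turnover complete the roles. Btn1a1, a butyrophilin of milk fat globules, had no count in young oocytes, 29.9 and 30.1 CPM in aged oocytes and 0, 0 and 12.2 CPM in rapamycin oocytes. Btla, an inhibitory receptor of lymphocytes, had 0.443 and 0.480 CPM in young, 25.1 and 28.1 CPM in aged and 7.52, 32.5 and 0.493 CPM in rapamycin oocytes. In Btn1a1 only rapamycin 3 left the young level, whereas in Btla that library was the one that did not. Hif3a, a member of the hypoxia-inducible factor family, had 2.22 and 2.88 CPM in young, 30.9 and 39.0 CPM in aged and 30.1, 19.2 and 23.3 CPM in rapamycin oocytes. Hif3a, Pknox2 and Gata6 were the members on the list of homeobox and related transcription factors (4.48%, against 1.38% of detected genes). Kctd5 and Klhl12, adaptors that bring substrates to the cullin 3 ubiquitin ligase, were the members on the ubiquitin list (2.99%, against 2.48% of detected genes). Kctd5 (chromosome 17, 24047734 to 24073485, minus strand) had 85.3 and 85.7 CPM in young, 690 and 458 CPM in aged and 255, 300 and 445 CPM in rapamycin oocytes. Klhl12 had 18.2 and 17.5 CPM in young, 132 and 99 CPM in aged and 23.2, 60.5 and 71.2 CPM in rapamycin oocytes. For both adaptors every rapamycin library lay between the young and the aged values.

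Of the 29 gene lists read against the set, unnamed gene models gave the most members, 10 of 67 (14.9%) against 9.57% of all detected genes. Coiled-coil, leucine-rich and transmembrane families of little known role gave 4 (Lrrc31, Ccdc38, Fam3b and Fam234b; 5.97% against 3.56%), and protein kinases and phosphatases gave 3 (Dclk1, Stk32a and Inpp4b; 4.48% against 2.34%). Zinc finger proteins gave 1, Zfp619 (1.49% against 2.57%). Solute carriers (Slc22a22, Slc6a14), extracellular matrix (Pxdn, Otogl), nucleotide and ribosome biogenesis (Rrs1, Pnp2) and histones (Hist1h2al, Hist2h3b) gave 2 each (2.99%), against 1.88%, 0.919%, 1.24% and 0.340% of detected genes. No member was on the lists of G protein-coupled receptors (2.13% of detected genes), small GTPases and their regulators (1.77%), growth factors (0.802%), ribosomal proteins (0.574%), senescence genes (0.141%) or genes of the two-cell embryo (0.0937%). With counts this low, none of these differences in share was tested. The remaining 29 members were on no list. The lists are not complete, as these 29 include Pak3, Celsr1 and Traf6, described here as a kinase, a cadherin and a ubiquitin ligase. Counts per list are thus not counts per role. 

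Among the remaining members, Celsr1, a cadherin of planar cell polarity, had 13.3 and 16.6 CPM in young, 164 and 76.6 CPM in aged and 12.1, 85.5 and 111 CPM in rapamycin oocytes. Cpsf4l, related to a subunit of the mRNA cleavage machinery, had 28.6 and 29.5 CPM in young, 131 and 124 CPM in aged and 74.3, 130 and 100.1 CPM in rapamycin oocytes. Celsr1 was at the young level in rapamycin 1 alone, and Cpsf4l lay above it in all 3. Ccdc38 had 3.32 and 2.16 CPM in young, 29.6 and 36.2 CPM in aged and 51.7, 59.4 and 39.8 CPM in rapamycin oocytes, and its rapamycin values all exceeded the aged ones. Lrrc31, a leucine-rich repeat protein, had 3.99 and 3.00 CPM in young, 49.6 and 54.8 CPM in aged and 52.6, 38.0 and 37.8 CPM in rapamycin oocytes. Tnpo2, a nuclear import receptor, had 2.88 and 4.80 CPM in young, 34.2 and 28.5 CPM in aged and 20.5, 18.4 and 16.8 CPM in rapamycin oocytes. Lrrc31 and Tnpo2 varied little between rapamycin libraries, the first around the aged level and the second below it. Pknox2, a homeodomain factor, had no count in young oocytes, 7.92 and 18.4 CPM in aged and 7.29, 8.20 and 6.90 CPM in rapamycin oocytes. Traf6, a ubiquitin ligase of innate immune signalling, had 0.443 and 0.120 CPM in young, 10.7 and 12.7 CPM in aged and 14.6, 4.89 and 5.92 CPM in rapamycin oocytes. Isg20, an exonuclease induced by interferon and the only member on the list of immune and cytokine genes, had 0.665 and 1.20 CPM in young and 12.0 and 11.55 CPM in aged oocytes. Its rapamycin values of 0, 14.3 and 21.2 CPM lay on both sides of the aged ones. Members not given by library stayed under 60 CPM in both aged libraries, except Gm1943 (64.2 and 38.1 CPM).

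A fold over a group without counts is only a lower bound, set here against 3 counts over both young libraries. On summed counts aged oocytes had at least 129-fold higher Btn1a1, with D430041D05Rik and Nox4 at least 65.3-fold and Adcy2, an adenylyl cyclase, at least 40.6-fold higher levels. With 1 to 3 young counts the ratio is loose: it was 451 for Chl1 (95% counting interval 80.2 to 17900), 186 for Cmtm7 (50.9 to 1540), 155 for Prps2 (52.5 to 755) and 123 for Pak3 (33.6 to 1030). These intervals cover counting error only. Levels per kilobase of the longest annotated transcript allow only a rough comparison between genes, as the transcripts present in oocytes were not examined. In the lower aged library they were highest for Pnpla3 (1060 CPM per kb), followed by Nlrp4g (295), Gm1943 (219), Mtfr2 (217) and Kctd5 (187). The Gm1943 value is an exception that cannot be compared, as its transcript has 174 bases and 0% of its 75-base words are unique.

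Rapamycin oocytes took no part in the choice, and the median member stood closer to aged than to young oocytes in each of the 3 libraries. In rapamycin libraries 1, 2 and 3, the genes whose CPM plus 1 was at least 4 times the higher young value plus 1 numbered 37, 45 and 48 of 67. Over all genes the shares were 1.55%, 0.433% and 0.421%. All 3 rapamycin libraries exceeded the higher young library in 52 members (all genes 8.56%), and all 3 passed the 4-fold threshold in 27 (all genes 0.143%). Without rapamycin 1, 58 members exceeded the higher young library in both others, a count for which no share over all genes was taken. Both of those libraries passed the 4-fold threshold in 36 members (all genes 0.229%). The young libraries entered both the choice and these counts, so they describe where rapamycin oocytes lie and are not independent evidence of a rise with age.

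On a log2 scale running from 0 at the higher young to 1 at the lower aged value, the median member stood at 0.795, 0.897 and 0.944 in rapamycin 1, 2 and 3. At or below the higher young value lay 9, 7 and 3 members, and at or above the lower aged value 24, 26 and 26. In 10 members every rapamycin library reached the lower aged value, namely Cdc5l, Mtfr2, Rbm44, Itgb1bp1, Ccdc38, Pnp2, Hist2h3b, 2410141K09Rik, 4930524B15Rik and LOC101056073. In 24 members every rapamycin library was below it, among them Pnpla3, Kctd5, Klhl12, Chl1 and Jph3. Without rapamycin 1 these numbers were 18 and 33. Because the aged values were chosen for being high and the young ones for being low, positions between the 2 are biased by the choice itself. No share over all genes was counted for these placements, so their numbers are a description only.

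**Figure D2:**
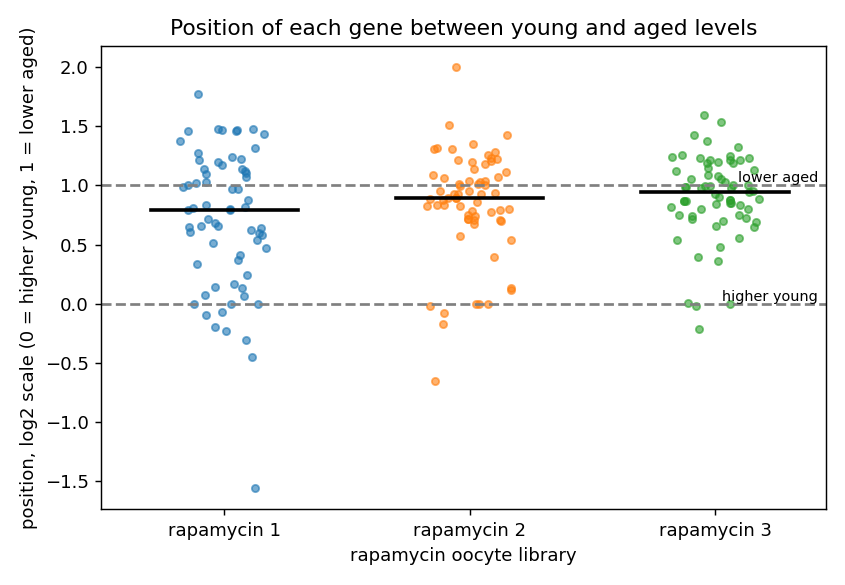
Position of each of the 67 genes in each rapamycin oocyte library (points), on the log2 (CPM + 1) scale between the higher young (0) and the lower aged value (1); black bars are medians. Most points lie near the aged line, with medians of 0.795, 0.897 and 0.944, and a minority lie at or below the young line.

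Differences among the rapamycin libraries did not enter the choice. Whether the choice favours genes that vary from library to library was not tested. Between rapamycin 2 and rapamycin 3, 12 of the 64 members with at least 3 CPM in either were at least 4 times apart, against 1.47% of 9189 genes. Among genes whose higher value was 3 to 100 CPM it was 12 of 53 members, against 1.69% of genes. The 2 aged libraries were that far apart in 2.07% of genes and the 2 young libraries in 0.245%. Rapamycin 2 was the lower in 9 of the 12 (Dclk1, Prps2, Spink2, Btn1a1, Cmtm7, Dbt, Tex19.2, D430041D05Rik and Fam234b) and rapamycin 3 in the other 3 (Btla, Pak3 and Tpm4). With rapamycin 1 included, 27 of 65 members were at least 4 times apart between the highest and lowest library, against 26.2% of 9791 genes. Rapamycin 1 was the lowest library in 31 members (46.3%), rapamycin 2 in 20 (29.9%) and rapamycin 3 in 16 (23.9%). Over the 9791 genes with at least 3 CPM in a rapamycin library the shares were 54.4%, 21.7% and 23.9%. The member shares were taken without that limit.

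Single genes show how wide the spread was. Cmtm7, a small membrane protein, had 32.2 and 26.1 CPM in aged and 0.228, 0.158 and 17.2 CPM in rapamycin oocytes, against 0.222 and 0.120 CPM in young ones. D430041D05Rik, an unnamed gene model, had no count in young oocytes, 9.46 and 20.4 CPM in aged and 2.05, 0 and 16.9 CPM in rapamycin oocytes. Both genes were at the young level in rapamycin 2 and far above it in rapamycin 3. Fam234b had 7.75 and 7.20 CPM in young, 37.1 and 34.2 CPM in aged and 0, 2.52 and 26.9 CPM in rapamycin oocytes, below the young values in 2 of the 3. Stk32a, a kinase, ran the other way with 2.51, 67.0 and 17.1 CPM in rapamycin oocytes, against 12.5 and 11.55 CPM in aged and 0.222 and 1.32 CPM in young ones. In 6 members one rapamycin library was at or below the higher young value while another reached the lower aged value. Without rapamycin 1 that held for 1 member, D430041D05Rik.

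**Figure D3:**
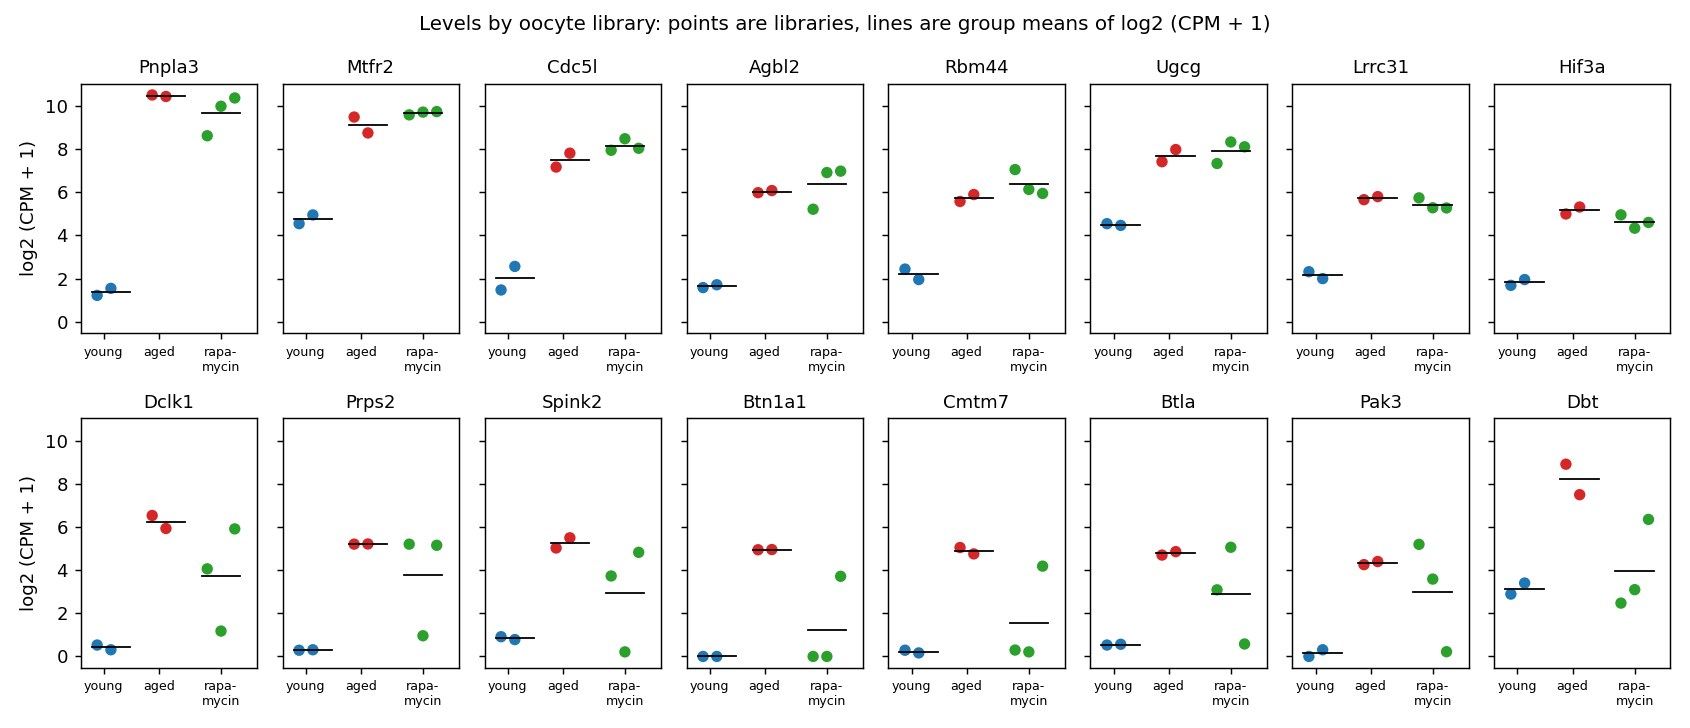
Level of 16 genes by oocyte library as log2 (CPM + 1), with points for libraries and lines for group means; they were picked with all values in view. In the upper row all rapamycin libraries lie far above the young ones. In the lower row they run from at or near the young level upward, as in Prps2 at 36.0, 0.946 and 34.7 CPM. There Btla and Pak3 reach the lower aged value in a rapamycin library, while Btn1a1, Cmtm7 and Dbt stay below it in all.

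A test over all genes compared rapamycin with young oocytes. In an edgeR quasi-likelihood F-test, fitted on 10083 genes with all 3 oocyte groups, 21 of the 67 members were higher in rapamycin oocytes at an adjusted p under 0.05 and none was lower. Over all genes tested 0.208% were called higher, all of them these 21 members, and 0.218% lower. The young libraries were chosen low, so these calls do not support a difference, and the differences of single genes are given as a description. On the log2 scale the difference was 9.08 ± 0.675 (SE) for Pnpla3, 6.43 ± 0.613 for Cdc5l, 5.02 ± 0.447 for Mtfr2, 5.42 ± 0.627 for Agbl2 and 3.55 ± 0.414 for Ugcg. The SE of every edgeR log2 difference given here is an approximation, the absolute difference divided by the square root of F. Genes with uneven rapamycin libraries had wider errors, as in Prps2 (6.64 ± 1.65) and Dclk1 (6.21 ± 1.63). Of the 27 members at least 4 times apart among the rapamycin libraries, 1, Pxdn, was among the 21. Leaving out rapamycin 1 raised the count to 53 members, with 1.45% of all genes called higher and 1.53% lower. Leaving out either young library lowered it to 0, with 0 of 11248 and 10936 genes called higher and 0 and 2 lower. Without either aged library it was 3, with 3 of 11263 and 11289 genes higher and 12 lower in each. Without rapamycin 2 or rapamycin 3 it was 4, with 4 of 9942 and 9922 genes higher and 8 and 4 lower. DESeq2 called 50 members higher and 0 lower, with 1.16% of all genes higher and 0.769% lower.

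Rapamycin against aged oocytes gave no call among the members with the same edgeR fit, nor over all genes (0.0% in either direction). In simulated data this fit called 0% of 2-fold, 2.1% of 4-fold and 36.7% of 8-fold differences. The lack of calls therefore does not show that the 2 groups are alike. At an unadjusted p under 0.05 there were 5 members, all lower in rapamycin oocytes: Fam3b (log2 difference -2.01 ± 0.595), Dbt (-3.56 ± 1.09), Klhl12 (-1.25 ± 0.439), Jph3 (-1.22 ± 0.438) and Kctd5 (-0.84 ± 0.344), each with an adjusted p of 0.73. That is 7.46% of members, against 5.98% of all genes tested. DESeq2 also called 0 members, with 0.0627% of all genes higher and 0.0235% lower. The members' median log2 difference was -0.51 against 0.01 over all genes tested, with 19 of 67 above 0. Since the aged values were chosen high, a median below 0 is built into the comparison. Without rapamycin 1 the edgeR count was again 0 (all genes 0.0294% higher and 0.0294% lower), with 15 members (22.4%) and 15.3% of all genes at an unadjusted p under 0.05. For Pnpla3 the log2 difference was -0.73 ± 0.425, and for Mtfr2 0.49 ± 0.356.

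In the hippocampus of the offspring the members' levels ranged from 0 to 773 CPM. At least 10 CPM in all 10 libraries was reached by 27 members (40.3%, all genes 36.5%), 20 stayed under 1 CPM in all of them (29.9%, all genes 39.8%), and 20 were in neither class. Sept3 was the most abundant, with a lowest, median and highest value of 667, 697 and 773 CPM. Dclk1 had 458, 581 and 693 CPM, Jph3, a junctophilin, 345, 392 and 517 CPM, and Fasn 200.1, 296 and 380 CPM. Of the members highest in aged oocytes, Pnpla3 had 2.502, 3.52 and 9.14 CPM, Mtfr2 0.0590, 0.295 and 0.667 CPM, and Nlrp4g at most 0.103 CPM. Others of high level in aged oocytes were moderately abundant in hippocampus, with 23.4, 27.0 and 29.1 CPM for Kctd5, 46.0, 80.7 and 93.5 CPM for Ugcg and 54.0, 60.5 and 69.1 CPM for Cdc5l. Lrrc31 had no count in any hippocampus library.

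**Figure D4:**
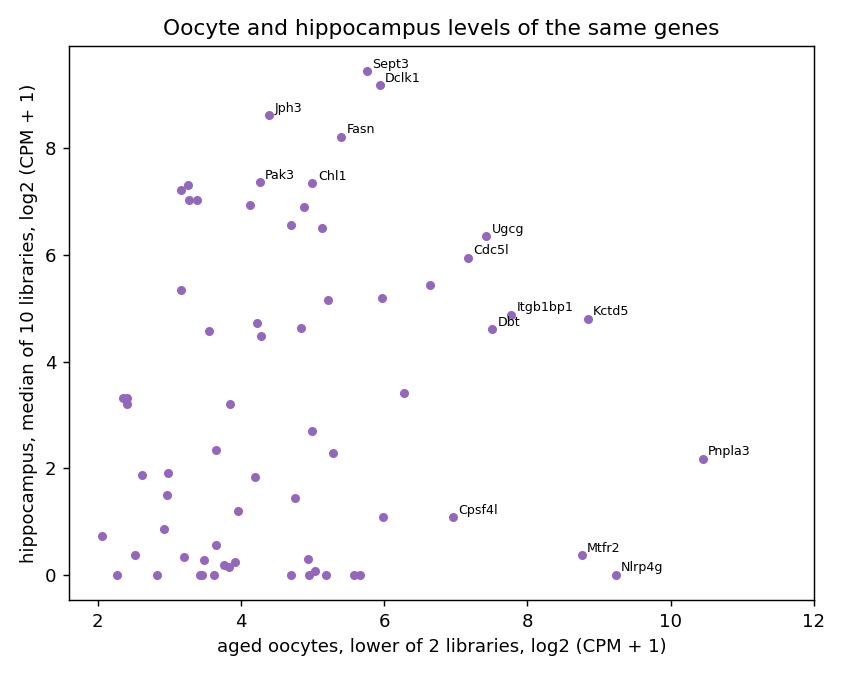
Level in hippocampus (median of 10 libraries) against level in aged oocytes (the lower of 2 libraries) for the 67 genes, both as log2 (CPM + 1). Sept3, Dclk1, Jph3 and Fasn are highest in hippocampus, while Pnpla3, Mtfr2 and Nlrp4g are abundant in aged oocytes and low or near 0 in hippocampus.

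The hippocampus took no part in the choice of the genes, so maternal groups could be tested there. For offspring of aged against young mothers, edgeR tested 47 members and called 0, with 0.0471% of all 14877 genes called higher and 0.0% lower. The 2 members at an unadjusted p under 0.05 were Chl1 (log2 difference -0.91 ± 0.364) and Bfsp1 (0.97 ± 0.404), both with an edgeR adjusted p of 0.99. The share was 4.26% of members and 3.51% of all genes. Chl1 averaged 223 ± 72.5 CPM (SD, n = 4) in offspring of young mothers, 118 ± 38.6 CPM (n = 3) in those of aged and 203 ± 116 CPM (n = 3) in those of rapamycin-treated mothers. For offspring of rapamycin-treated against untreated aged mothers edgeR again called 0 of 47 members (all genes 0.0%), with 1 at an unadjusted p under 0.05 (2.13%, against 4.52% of all genes), the retinal reductase gene Dhrs3 (log2 difference -0.71 ± 0.256, adjusted p = 0.796). DESeq2 called 0 members in both comparisons, with 0.241% of all genes higher and 0.0679% lower in the first, and 0.0216% higher and 0.0575% lower in the second. Pnpla3 differed by -0.89 ± 0.412 between offspring of aged and young mothers (adjusted p = 0.99), and Dclk1 by -0.05 ± 0.146 (adjusted p = 0.99).

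The members were scattered over the genome. Of 67 symbols, 65 matched GENCODE M21 on GRCm38, and 60 of them were protein coding (92.3%, against 92.9% of detected genes). Their longest transcripts had a median of 3423 bases and 8 exons, against 3123 bases and 7 exons for detected genes. They lay on chromosomes 1 to 19 and X, with at most 6 on 1 chromosome (chromosome 8). Of their 130 nearest neighbours on either side, 50 had the 3 CPM in both aged libraries that a ratio of 4 needs, and 0 of these met the threshold. At the all-gene share of 0.282% few or none would be expected, so nothing is read from that count. The closest were Ptprq beside Otogl (ratio 3.47), Ccdc57 beside Fasn (3.46) and Chrdl1 beside Pak3 (3.40).

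Some identities are uncertain. The strand setting of the counting is not given in the sources used here, and 31 members overlap a gene on the opposite strand and 17 a gene on their own. Fewer than 80% of 75-base words were unique in 7 members: Gm1943 and Hist2h3b (0%), Gm4737 (8.96%), A930015D03Rik (10.3%), Hist1h2al (54.3%), Cdc5l (72.2%) and Pnp2 (78.7%). Gm1943 is annotated as a processed pseudogene that shares its sequence with Wdr70, and Gm4737 shares its sequence with Ahcy. In 43 of the 65 matched members at least 99% of the words were unique.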

How the data were processed

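RNA was sequenced in 150 bp paired reads. The deposited files hold raw counts of reads per gene, 1 library per file, and the authors named STAR, HTSeq and the mm10 build, per the submitters' processing notes. The sources used here do not give versions, annotation or strand setting. Of each file, 24491 gene rows were used, and 5 rows that name no gene (such as reads outside genes, 6.09% to 9.32% of oocyte totals) were left out. From these counts CPM was computed over gene rows without further scaling, and 3 counts equal 0.360 to 0.767 CPM in oocytes. Each tissue was fitted with all its groups in edgeR 4.0.16 (TMM, filterByExpr, quasi-likelihood F-test) and p-values were adjusted by Benjamini-Hochberg over every gene tested, with a threshold of 0.05, in R 4.3.3. DESeq2 1.42.0 was an alternative, beside other scalings, filters, a replicate block and leaving out each library. All 67 members passed the filter in oocytes (63 in a fit without the aged libraries), and 47 in hippocampus. The code was tested on simulated data. Replicates of a group differed beyond counting noise (chi-square per degree of freedom at least 18.1 in oocytes). No label says that each library is a different animal. The p-values therefore measure only library-to-library spread, which may be technical. The members and gene lists were chosen with earlier results of these data known. The text names the 15 members highest in aged oocytes, the 15 of largest ratio, up to 4 per list by ratio, those called in a test, those whose median rapamycin level was lowest (8) or highest (8) against aged among members with at least 20 CPM in both aged libraries, those beside the threshold (5 on each side) and the 8 highest in hippocampus. The rule takes unnamed gene models by level or ratio only. Members named outside it, such as Nox4, Traf6, Tnpo2 and D430041D05Rik, were added after their values were seen. Gene positions come from GENCODE M21 and promoters from RefSeq GRCm38.p6. Python 3.11.15 and matplotlib 3.10.9 drew the figures.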

Additional observations from a re-analysis of the deposited data

How the results depend on the processing

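The number of genes chosen was 28 with 5 CPM in place of 1 added to each value, 30 with an 8-fold threshold and 90 to 198 when a library was left out. It stayed within 1.5 times of 67 under the other 4 alternatives tried. Members called higher in rapamycin than in young oocytes numbered 21 as reported. They numbered 49 without a low-count filter (100 of 17079 genes higher) and 50 with DESeq2 (1.16% of all genes higher). When the fit held only the 2 groups compared, the number was 3 (3 of 10425 genes higher). It was 0 to 53 when a library was left out. With the replicate block, in which libraries with the same number form a pair, 0 were called. Same-numbered oocyte libraries deviated from their group means with correlations of -0.092 to 0.005. With only 2 aged and 2 young libraries, the deviations within each of these groups are mirror images. These correlations therefore cannot decide whether libraries of the same number belong together. The cause of these shifts was not tested. For rapamycin against aged oocytes 1 member, Dbt, was called lower without a low-count filter, and 0 under the other 12 alternatives. In hippocampus 0 members were called under each of 16 alternatives in both comparisons. Without rapamycin 1, an alternative chosen after seeing the data, 18 members (10 with it) reached the lower aged value in every rapamycin library, 12 (27 with it) were 4 times apart, and 1 (6 with it) had libraries at both the young and the aged level. At 3 counts or fewer, in 24 members in young oocytes, depth limits the fold.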
